A study of Schmidtea mediterranea with 60 samples.

Results

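A set of 200 planarian transcript features, called dip features here, was low in control tails 6 hours after amputation and close to its starting level at 1 and 2 days. They were 200 of 36035 features in the tail table. The rule took the mean of the 3 control libraries at each time, added 10, took log2 and subtracted the value at 0dpa (days post amputation). Of 12868 eligible features, those with a control group mean of 50 or more at any of the 4 times, 542 were lower by 1 or more on this scale at 6hpa (hours post amputation). At 1dpa and 2dpa, 336 of these lay within 0.5 of 0dpa, and the 200 lowest at 6hpa are the dip features. The members were thus chosen by their own values in the control tails, and those values are given as a description with no test.

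The animal is Schmidtea mediterranea, a freshwater flatworm that regrows a whole body from a small fragment. RNAi was used against genes of the mitochondria: the opa1 product is a GTPase needed for fusion of inner mitochondrial membranes, drp1 codes for a GTPase of the dynamin family that cuts mitochondria apart, and sod2 for the mitochondrial manganese superoxide dismutase. Tails were sampled at 0dpa, 6hpa, 1dpa and 2dpa after opa1;drp1 RNAi (combined RNAi tails), opa1;egfp RNAi (opa1 RNAi tails) or egfp;egfp RNAi (control tails). Whole bodies after opa1, drp1, sod2 or egfp RNAi were sampled at 1dpa and at a time labelled homo, a term the labels do not explain. All animals had RNAi, the controls with egfp, a jellyfish gene. Each of the 12 tail groups and 8 whole-body groups has 3 libraries, 60 in all. Strain, age and whether replicates were single animals or pools are not given in the labels, so all p-values rest on the spread between these libraries alone, and that spread may be technical.

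Planarian regeneration rests on neoblasts, dividing stem cells that supply every new cell type. Amputation first sets off a broad wound response within hours, in which muscle, epidermal and gut cells and neoblasts change their transcripts. Later phases, tied to the loss of tissue, bring renewed stem cell division and the patterning of missing parts. Mitochondria in dividing and differentiating cells are reshaped by the balance of fusion and division, the process in which opa1 and drp1 take opposite sides.

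The deposited files do not pair feature IDs with gene names, and 0 features were matched to a name. The dip features are therefore given by ID, without a role, and neither the RNAi targets nor any marker of a cell type could be looked up. In bulk tissue, fewer cells of a type and less RNA per cell cannot be told apart. Tail values were scaled between libraries by the authors and summed to 8350000 to 14470000 per library. The estimated counts of a whole-body library summed to between 10610000 and 14330000. In each library at 6hpa the most abundant feature held more of the library than in any other library of the same RNAi, at 18.8% to 22.9% in combined RNAi, 10.4% to 13.5% in opa1 RNAi and 21.2% to 29.2% in control tails. Features above 0 numbered 22365 to 25175 at 6hpa and 24075 to 28543 at the other times. The part of either measure in the dip was not tested. Scaling to library sums without that feature moves every feature of a library by the same factor, so it does not test that part. The median log2 fold change of the dip features at 6hpa against 0dpa was then -1.75 in combined and -1.31 in opa1 RNAi tails, and -1.53 and -1.20 as deposited, while the median of all features was -0.42 and -0.24, and -0.19 and -0.12 as deposited.

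In control tails the change at 6hpa ranged from -2.18 to -1.13 with a median of -1.29 over the 200 dip features. Their median changes were 0.12 at 1dpa and -0.02 at 2dpa. The last feature inside the set, SMED30017364, changed by -1.132 at 6hpa, and the first outside, SMED30015799, by -1.130. The bound is thus a cut through a continuous range, and 136 further features met the thresholds. Membership also moved with single libraries: 143 of the 200 were chosen again without control 6hpa replicate 2, and 194 without control 2dpa replicate 3.

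The set spans abundant and scarce transcripts. The mean scaled value in control tails at 0dpa ran from 36.1 to 9623, with a median of 187.7 against 213.4 for the eligible features. Per length, in control whole bodies at homo, the median was 18.5 TPM (a length-scaled share of the library) for the members and 14 TPM for eligible features. By this measure SMED30003909 was highest at 7478 TPM and SMED30033769 lowest at 0.849 TPM, while 55 members lay under 10 TPM and 36 over 100 TPM. The median member was 1.19 times as long as the median feature, against 1.38 times for eligible features. Over all tail libraries the members had 8 values of 0, in 3 features, and 5 of these were in 6hpa libraries.

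SMED30017160 had the deepest dip in control tails. In combined RNAi tails it had 156, 163 and 186 scaled units at 0dpa, 24, 19.2 and 10.1 at 6hpa, 298, 243 and 238 at 1dpa, then 126, 134 and 185 at 2dpa. In opa1 RNAi tails it had 157, 142 and 158 at 0dpa, 61.9, 37.3 and 54.2 at 6hpa, 294, 258 and 268 at 1dpa, then 126, 127 and 166 at 2dpa. In control tails it had 164, 166 and 206 at 0dpa, 3.22, 61.3 and 30.4 at 6hpa, 154, 177 and 235 at 1dpa, then 151, 156 and 100.2 at 2dpa. In each of the 3 RNAi conditions, every 6hpa library lay below every library of the other times. The 3 control libraries at 6hpa spread widely, and replicate 1 there was near the worth of a few reads.

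SMED30035904, second lowest in control tails, has a tighter spread. It had 618, 779 and 643 scaled units at 0dpa, 158, 135 and 183 at 6hpa, 1082, 962 and 1009 at 1dpa, then 1003, 1216 and 1080 at 2dpa in combined RNAi tails. With opa1 RNAi it had 463, 419 and 546 at 0dpa, 136, 86.6 and 88.2 at 6hpa, 567, 584 and 719 at 1dpa, then 701, 712 and 962 at 2dpa. In control tails it had 784, 833 and 615 at 0dpa, 123, 183 and 169 at 6hpa, 1124, 915 and 925 at 1dpa, then 1141, 991 and 1015 at 2dpa. Again no 6hpa library reached the other times, and in combined RNAi, opa1 RNAi and control tails alike every 2dpa library lay above every 0dpa library.

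SMED30018643 and SMED30006180, which had the highest scaled values at 0dpa in control tails, kept a ratio of 0.663 to 0.864 (SMED30006180 over SMED30018643) in all 36 tail libraries. SMED30018643 had 3612, 3872 and 4784 scaled units at 6hpa, against 11998, 10972 and 11582 at 0dpa, in combined RNAi tails. It had 5602, 3787 and 3962 at 6hpa, against 10066, 7748 and 9662 at 0dpa, in opa1 RNAi tails. In control tails it had 3852, 4582 and 4563 at 6hpa, against 9264, 10480 and 9124 at 0dpa. The 6hpa libraries lay below the 0dpa libraries in all 3 conditions. Whether reads were split between both features as near-identical copies was not tested.

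**Figure D1:**
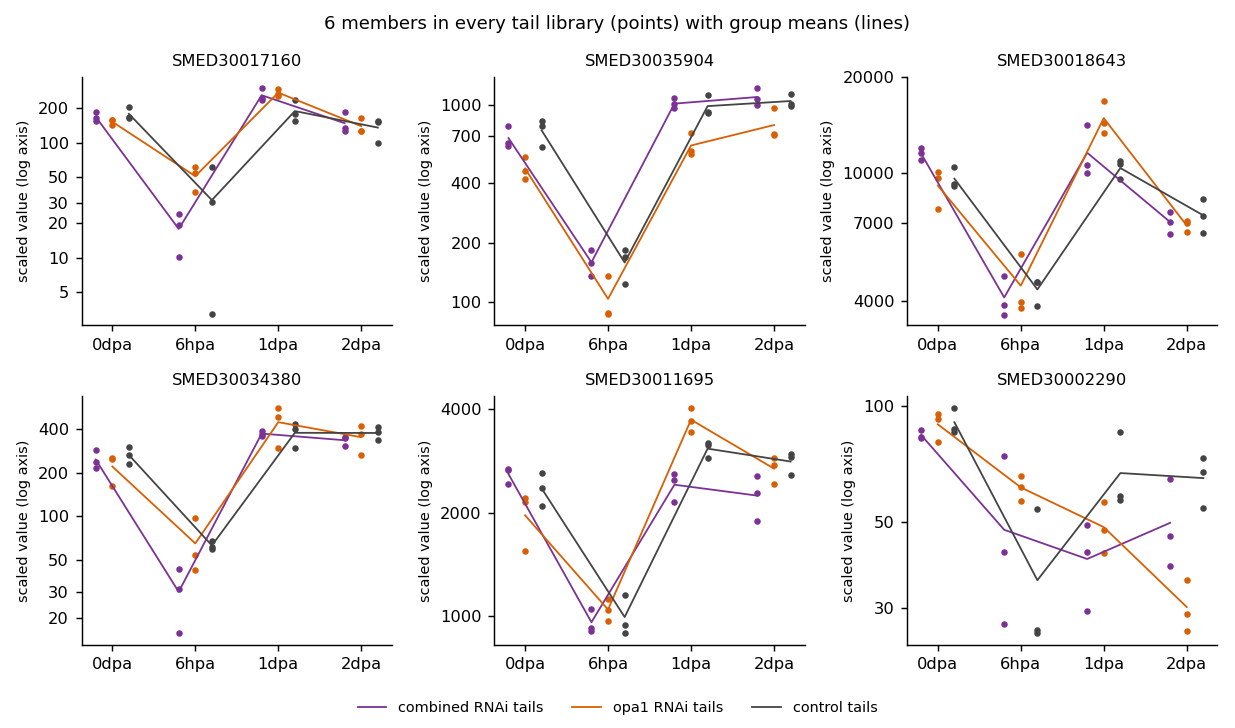
Scaled values of 6 dip features in each of the 36 tail libraries (points, log axis) at 4 times after amputation, with group means as lines, for combined RNAi, opa1 RNAi and control tails. SMED30017160, SMED30035904, SMED30018643, SMED30034380 and SMED30011695 were lower at 6hpa than at 0dpa in each condition, while SMED30002290 did not return by 1dpa in either RNAi condition.

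Both RNAi conditions, in libraries that played no part in choosing the members, were low in the same features at 6hpa. With the same scale inside each condition, the median change at 6hpa was -1.37 in combined and -1.06 in opa1 RNAi tails, and the eligible features had medians of -0.10 and -0.06. A change of -1 or lower was reached by 174 of 200 members in combined RNAi tails, where 9.16% of eligible features did so, and by 117 of 200 in opa1 RNAi tails, where 3.18% did. All 200 were lower at 6hpa in combined and 199 in opa1 RNAi tails. The full thresholds of the rule, applied to each condition's own libraries, were met by 141 of 200 in combined RNAi tails (5.88% of eligible features) and by 66 of 200 in opa1 RNAi tails (1.62% of eligible features). At 1dpa, 16 members in combined RNAi tails were higher than 0dpa by 0.5 or more, as were 7.16% of eligible features, and 76 members in opa1 RNAi tails, as were 13.6% of eligible features.

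**Figure D2:**
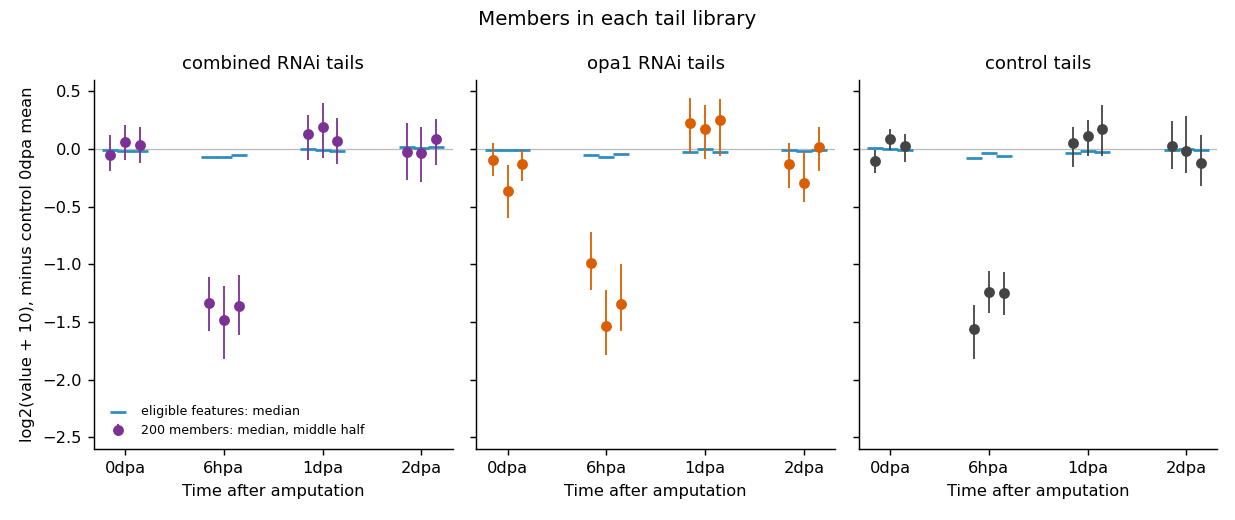
Median (point) and interquartile range (bar) of the 200 dip features in each tail library, as log2(value + 10) minus the control 0dpa mean, with the median of the 12868 eligible features as a dash. The 9 libraries at 6hpa lie between -1.56 and -0.99 and the other 27 between -0.36 and 0.25.

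The dip was present in combined and in opa1 RNAi tails, while in control tails it was fixed by the rule that chose the members. Median member levels at 6hpa, relative to control 0dpa, were -1.33, -1.48 and -1.36 in combined RNAi, -0.99, -1.54 and -1.34 in opa1 RNAi, and -1.56, -1.24 and -1.25 in control tails. The conditions overlap at this time, but the control values are those by which the members were chosen to be low. Together the members held 0.302% to 0.398% of a combined RNAi library at 6hpa, 0.335% to 0.584% of an opa1 RNAi library and 0.302% to 0.436% of a control library, and 0.931% to 1.85% of any library at the other times. Of the opa1 RNAi libraries, 0dpa replicate 2 stood low at -0.36 beside -0.10 and -0.13, and 6hpa replicate 1 stood high. Results that rest on these libraries are given with and without them.

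Tested over all features with limma on log2(value + 1), combined RNAi tails at 6hpa against 0dpa had 195 of 200 dip features lower and 0 higher, where 29.2% of all 20681 features tested were called lower. A feature is called when its Benjamini-Hochberg adjusted p, over all features tested, is under 0.05. The median log2 fold change was -1.53 for the members and -0.19 for all features. In opa1 RNAi tails 184 were lower and 0 higher, with a background of 20.9% called lower and medians of -1.20 and -0.12. Every 6hpa library lay below every 0dpa library for 195 members in combined RNAi tails (37.2% of eligible features) and for 173 in opa1 RNAi tails (28.4% of eligible features). All 200 members passed the filter on low values.

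SMED30031935 fell furthest in combined RNAi tails among members whose libraries did not overlap. It had 22.9, 2.98 and 6.71 scaled units at 6hpa, against 106, 93.8 and 101 at 0dpa, a log2 fold change of -3.49 (SE 0.42, limma adjusted p = 7.578e-09). SMED30017160, given above, followed at -3.25 (SE 0.45, limma adjusted p = 1.667e-07). SMED30006312 fell furthest in opa1 RNAi tails, with 23.4, 9.06 and 9.98 scaled units at 6hpa, against 99.1, 71.5 and 98.7 at 0dpa. Its log2 fold change was -2.69 (SE 0.33, limma adjusted p = 5.701e-08). SMED30024751 had 18.8, 1.14 and 18.5 at 6hpa, against 83.0, 51.6 and 43.9 at 0dpa, a log2 fold change of -2.64 (SE 0.44, limma adjusted p = 1.137e-05). The lowest library of SMED30024751 was at about the worth of 1 read. Over the tail libraries that worth was estimated at 0.95 to 1.60 scaled units at 6hpa and 0.72 to 1.02 at the other times. The part of this difference in the dip was not tested.

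For most members the dip ended by the next time in both conditions. At 1dpa against 6hpa, 193 dip features were higher and 0 lower in combined RNAi tails, where 33.2% of all features were called higher, and the medians were 1.63 for members and 0.25 for all. With opa1 RNAi 194 were higher and 0 lower, with 31.9% of all features called higher and medians of 1.60 and 0.24. Since the 6hpa libraries stand in both the fall and the return, those counts are not independent of each other. The 7 members not called in the return in combined RNAi tails include SMED30007637 and SMED30015498. Their log2 fold changes were 0.17 and 0.21 (limma adjusted p = 0.6625 and 0.5743), and they were picked out here after their values were seen. In combined RNAi tails SMED30017160 had the largest return, with a log2 fold change of 3.87 (SE 0.45, limma adjusted p = 3.788e-09). SMED30034380 had 369, 358 and 391 scaled units at 1dpa, against 31.6, 15.6 and 43.2 at 6hpa, a log2 fold change of 3.70 (SE 0.26, limma adjusted p = 4.773e-14). SMED30032528 in opa1 RNAi tails had 129, 120 and 113 at 1dpa, against 12.9, 12.5 and 9.96 at 6hpa, a log2 fold change of 3.25 (SE 0.24, limma adjusted p = 2.802e-13). SMED30021207 had 101, 84.2 and 95.8 at 1dpa, against 16.4, 4.40 and 16.5 at 6hpa, a log2 fold change of 3.00 (SE 0.46, limma adjusted p = 1.187e-06).

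**Figure D3:**
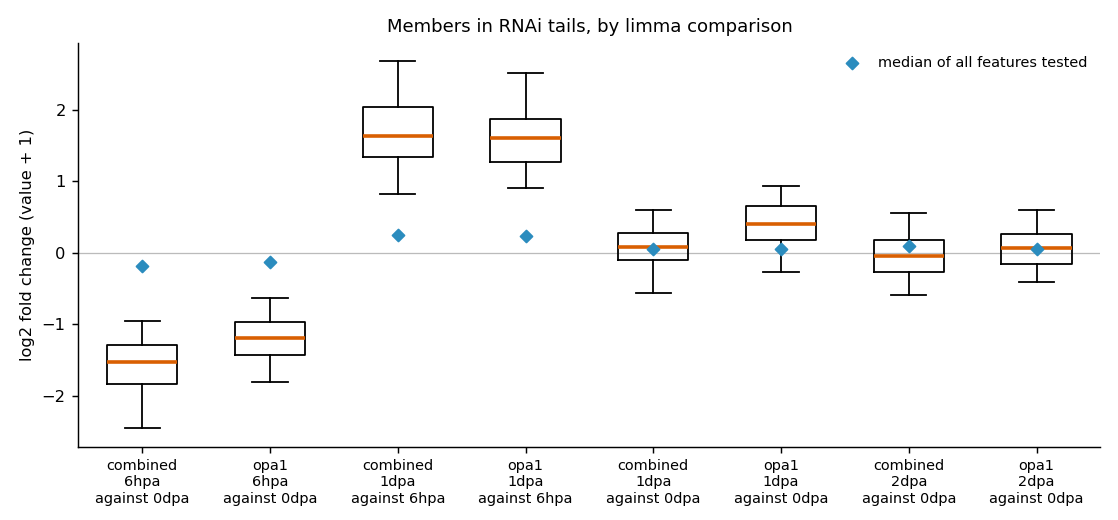
Log2 fold changes of the 200 dip features in combined and opa1 RNAi tails for 4 comparisons of times. Boxes show the interquartile range and the median, whiskers the 5th and 95th percentiles, and diamonds the median of all 20681 features tested. Members lie near -1.53 and -1.20 at 6hpa against 0dpa and near 1.63 and 1.60 at 1dpa against 6hpa, and only the opa1 RNAi box at 1dpa against 0dpa lies wholly above 0 among the other 4.

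Exceptions were few. With opa1 RNAi, 16 members were not called lower at 6hpa, and of these SMED30028777 alone was higher in the fit, at 1.19 (SE 2.11, limma adjusted p = 0.6881). Its tail values jump between libraries: in control tails it had 15.9, 418 and 0 scaled units at 0dpa and 159, 0 and 6.51 at 6hpa, so its membership rests on 1 library. In whole bodies the same feature was even, at 21.4 to 47.6 CPM (counts scaled to the library size) in all 24 libraries. The 5 members not called lower in combined RNAi tails were SMED30019048, SMED30026667, SMED30028269, SMED30028625 and SMED30028777, with log2 fold changes of -2.92 to -0.75. SMED30028777 and the members of that list outside the stated rule were picked out after their values were seen.

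SMED30002290 was the 1 member whose fitted value at 1dpa was below that at 6hpa in both RNAi conditions. In combined RNAi tails it had 86.7, 82.9 and 82.7 scaled units at 0dpa, 74.4, 41.7 and 27.2 at 6hpa, 41.8, 49.2 and 29.5 at 1dpa, then 64.8, 38.5 and 46.2 at 2dpa. In opa1 RNAi tails it had 80.6, 92.9 and 95.7 at 0dpa, 66.0, 56.8 and 61.9 at 6hpa, 56.4, 47.7 and 41.6 at 1dpa, then 26.1, 29.0 and 35.3 at 2dpa. In control tails it had 85.9, 87.5 and 99.2 at 0dpa, 26.3, 25.8 and 54.1 at 6hpa, 57.2, 58.5 and 85.5 at 1dpa, then 67.5, 73.3 and 54.4 at 2dpa. Its opa1 RNAi libraries thus step down with each time and its 2dpa libraries there lie below all others of that condition. At 2dpa against 0dpa in opa1 RNAi tails it fell by 1.55 on the log2 scale (SE 0.28, limma adjusted p = 0.0002725).

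**Figure D4:**
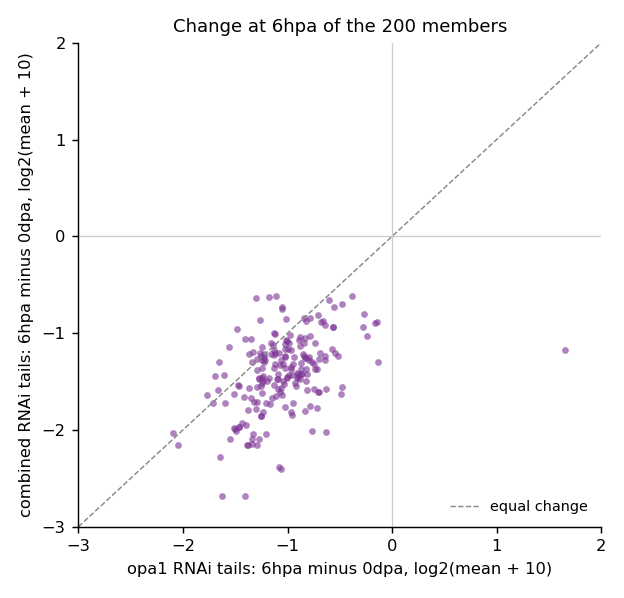
Change at 6hpa, as log2(group mean + 10) minus 0dpa, of each of the 200 dip features in opa1 RNAi tails (x axis) and combined RNAi tails (y axis), with equal change as a dashed line. Of the 200 points, 171 lie below the line, and SMED30028777 is the 1 point to the right of 0.

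The median change of the members at 6hpa was lower in combined than in opa1 RNAi tails, but few single features differed. Member medians of the 6hpa libraries overlapped between these conditions, and opa1 RNAi 0dpa replicate 2 stood low. Of 200 members, 171 had the lower change at 6hpa in combined RNAi tails, against 46.1% of eligible features. That share covers features that rose as well as those that fell. Eligible features changed more in both directions in combined RNAi tails. There 9.16% were at -1 or lower and 29.3% at 0.5 or higher, against 3.18% and 22.6% in opa1 RNAi tails. Whether the members differ from other falling features in this was not tested. Across the 200 features, which are not independent replicates, the changes in both conditions had a Pearson r of 0.437, and they come from different libraries. Tested as the difference of the changes, combined minus opa1 RNAi, 11 members were called lower and 0 higher, where 2.88% of all features were called lower and 4.57% higher. The median difference was -0.40 for members and 0.02 for all features, and -0.57 to -0.17 for members over the alternatives. SMED30023708 had 5.62, 7.44 and 30.4 scaled units at 6hpa, against 92.2, 95.5 and 81.6 at 0dpa, in combined RNAi tails, and 43.5, 57.1 and 25.1 at 6hpa, against 78.4, 51.4 and 80.9 at 0dpa, in opa1 RNAi tails. Its difference was -2.13 (SE 0.52, limma adjusted p = 0.01457). The difference of SMED30031935 was -2.05 (SE 0.59, limma adjusted p = 0.03047).

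These counts rest on single libraries. Without opa1 RNAi 0dpa replicate 2 the difference was called for 1 member, without opa1 RNAi 6hpa replicate 1 for 4 (2 lower and 2 higher), and without both for 0. It was called for 6 without opa1 RNAi 0dpa replicate 3, for 39 without opa1 RNAi 6hpa replicate 2, for 2 and 4 without combined RNAi 0dpa replicates 2 and 3, and for 3 without combined RNAi 6hpa replicate 2. SMED30023708 lost its call without opa1 RNAi 0dpa replicate 2 or combined RNAi 6hpa replicate 2, where its highest adjusted p was 0.05767. SMED30031935 lost its call in 7 of the 12 fits without 1 library, all but those without opa1 RNAi 0dpa replicates 1 and 3, opa1 RNAi 6hpa replicate 2, combined RNAi 0dpa replicate 1 and combined RNAi 6hpa replicate 1, and its adjusted p ranged from 0.00393 to 0.1277 in limma over those 12.

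At 6hpa itself, combined against opa1 RNAi tails had 14 dip features lower and 5 higher, where 2.36% and 2.4% of all features were called lower and higher. The direction was not stable. There were 2 lower and 13 higher without opa1 RNAi replicate 1, 36 lower and 3 higher without opa1 RNAi replicate 2, 2 lower and 3 higher without combined RNAi replicate 2, and 57 lower and 0 higher among the 149 members in the deposited TPM table. Scaled without the most abundant feature there were 19 lower and 1 higher. SMED30032528 was higher with combined RNAi, at 19.1, 30.8 and 35.8 scaled units against 12.9, 12.5 and 9.96 with opa1 RNAi, a log2 fold change of 1.17 (SE 0.24, limma adjusted p = 0.005645). It kept its call without any 1 library but lost it in a fit of only the libraries compared. SMED30019647 was lower, at 50.6, 11.8 and 26.8 against 64.2, 51.5 and 76.7, a log2 fold change of -1.29 (SE 0.28, limma adjusted p = 0.007054), and lost its call without combined RNAi replicate 2 (adjusted p = 0.09256). SMED30024219 (0.71, limma adjusted p = 0.04471) and SMED30017160 (-1.52, limma adjusted p = 0.04417) each lost their call in 4 of 6 fits without 1 library, where their adjusted p reached 0.1966 and 0.1584. The fits that kept the calls left out opa1 RNAi replicates 1 and 3 for SMED30024219, and opa1 RNAi replicate 2 and combined RNAi replicate 1 for SMED30017160.

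At 0dpa, combined against opa1 RNAi tails had 0 dip features called by limma and 38 (19.0%) at an unadjusted p under 0.05. Of all features, 0.764% were called either way and 16.2% had such an unadjusted p. The median member was 0.24 higher with combined RNAi, against 0.03 for all features, and 0.14 to 0.30 higher over the alternatives. Without opa1 RNAi replicate 1 there were 8 called, all higher, and without opa1 RNAi replicate 2 there were 0. At 2dpa 0 were called by limma and 27 (13.5%) had an unadjusted p under 0.05, with 0.735% of all features called and 9.41% at such an unadjusted p, and 1 member was called without opa1 RNAi replicate 3.

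At 1dpa against 0dpa in opa1 RNAi tails, 59 members were higher, 3 lower and 138 not called, where 14.3% and 13.8% of all features were called higher and lower, and the median was 0.40 for members against 0.06 for all. Without opa1 RNAi 0dpa replicate 2 the counts were 38 higher and 1 lower. SMED30000218 had 51.3, 69.9 and 43.4 scaled units at 1dpa, against 26.6, 11.7 and 20.1 at 0dpa, a log2 fold change of 1.49 (SE 0.34, limma adjusted p = 0.001264). SMED30018643 had 16857, 14422 and 13357 at 1dpa, above each of its 0dpa libraries, a log2 fold change of 0.70 (SE 0.13, limma adjusted p = 0.0001592). It lies outside the stated rule for naming features in this comparison, and its fits without 1 library are not given. SMED30021207 was higher by 1.38 (limma adjusted p = 0.0238) and SMED30002290 and SMED30007534 changed by -0.88 and -0.62 (limma adjusted p = 0.01645 and 0.03796). SMED30021207 lost its call without 0dpa replicate 2, 1dpa replicate 1 or 1dpa replicate 3, SMED30002290 without 0dpa replicate 2 or 3 or 1dpa replicate 3, and SMED30007534 without 0dpa replicate 2 or 3 or 1dpa replicate 1 or 2. Their highest adjusted p in these fits was 0.1315, 0.07084 and 0.1654.

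In combined RNAi tails at 1dpa against 0dpa, 5 members were higher and 6 lower, where 5.24% and 4.18% of all features were called higher and lower, and 2.5% and 3.0% of members. Without 1 library between 2 and 8 were called, and the split turned to 3 higher and 2 lower without 0dpa replicate 2, 5 and 3 without 1dpa replicate 3, 8 and 4 without the most abundant feature in the sums and 16 and 1 in the TPM table, while TMM gave 4 and 9. It was 1 and 3 without 0dpa replicate 1, 1 and 5 without 0dpa replicate 3, 0 and 2 without 1dpa replicate 1 and 1 and 3 without 1dpa replicate 2. SMED30002290 changed by -1.08 (SE 0.28, limma adjusted p = 0.01079), a call lost without 1dpa replicate 3 (adjusted p = 0.07616). The other named members, SMED30017364 and SMED30025808 higher by 0.95 and 0.80 and SMED30015498 changed by -1.04, lost their calls in 4, 5 and 4 of 6 fits without 1 library, with adjusted p up to 0.2242, 0.1622 and 0.1553. SMED30017364 kept its call without 0dpa replicate 2 or 1dpa replicate 3, SMED30025808 without 1dpa replicate 3, and SMED30015498 without 0dpa replicate 3 or 1dpa replicate 3.

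The difference of the 1dpa against 0dpa change, combined minus opa1 RNAi, was a comparison added after the data were seen. It was called lower for 5 members and higher for 0, where 0.15% and 0.266% of all features were called, and the median was -0.32 for members against 0.00 for all. SMED30011695 had 2153, 2497 and 2586 scaled units at 1dpa, against 2419, 2668 and 2684 at 0dpa, in combined RNAi tails, and 4042, 3693 and 3441 at 1dpa, against 2202, 1551 and 2143 at 0dpa, in opa1 RNAi tails. Only the opa1 RNAi libraries at 1dpa lie above their 0dpa libraries, and the difference was -1.04 (SE 0.17, limma adjusted p = 0.002789) and was called without any 1 library. SMED30014079 differed by -0.95 (SE 0.20, limma adjusted p = 0.0289), a call lost without opa1 RNAi 0dpa replicate 2, opa1 RNAi 1dpa replicate 1 or 3, combined RNAi 0dpa replicate 2 or combined RNAi 1dpa replicate 1 (adjusted p up to 0.1406). The count of called members was 1 without opa1 RNAi 0dpa replicate 2, combined RNAi 0dpa replicate 2 or combined RNAi 1dpa replicate 1, 2 without opa1 RNAi 1dpa replicate 1 or 3, and 13 without opa1 RNAi 0dpa replicate 1 or 1dpa replicate 2.

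At 1dpa itself, combined against opa1 RNAi tails had 1 dip feature lower and 1 higher, where 0.218% and 0.0822% of all features were called. SMED30011695 changed by -0.63 (SE 0.12, limma adjusted p = 0.006677), with the values above, and SMED30035904 was higher by 0.71 (SE 0.16, limma adjusted p = 0.03638). SMED30011695 lost its call without opa1 RNAi or combined RNAi replicate 1, where adjusted p reached 0.1038, and SMED30035904 lost its call without any 1 of the 6 libraries but opa1 RNAi replicate 3. Without opa1 RNAi replicate 1 or combined RNAi replicate 1 there were 0 called, and 1 without opa1 RNAi replicate 2 or combined RNAi replicate 2 or 3. Scaled without the most abundant feature, or in the TPM table, 1 was lower and 0 higher.

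At 2dpa against 0dpa in combined RNAi tails, 7 members (3.5%) were higher and 13 (6.5%) lower, where 10.2% and 6.9% of all features were called higher and lower. The split moved with scaling, to 2 higher and 18 lower with TMM, 10 and 10 without the most abundant feature, and 33 and 0 in the TPM table, where the median of all features was 0.36 against 0.09 as deposited. SMED30035904 was higher by 0.70 (SE 0.16, limma adjusted p = 0.002373). SMED30032428 had 99.4, 83.5 and 111 scaled units at 2dpa, against 54.1, 36.9 and 60.3 at 0dpa, a log2 fold change of 0.96 (SE 0.26, limma adjusted p = 0.007611), a call lost without 0dpa replicate 2 (adjusted p = 0.07542). SMED30015498 had 256, 407 and 358 at 2dpa, against 629, 969 and 529 at 0dpa, and fell by 1.04 on the log2 scale (SE 0.30, limma adjusted p = 0.01554), a call lost without 0dpa replicate 2 or 2dpa replicate 1 (adjusted p up to 0.1242). SMED30007637, which kept a ratio of 0.852 to 1.67 to SMED30015498 in the tail libraries, changed by -0.90 (limma adjusted p = 0.04476), a call lost without any 1 library but 0dpa replicate 3.

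In opa1 RNAi tails at 2dpa against 0dpa, 7 members were higher and 5 lower, where 5.62% and 4.55% of all features were called. The split was 13 higher and 1 lower in the TPM table and 7 and 2 without the most abundant feature. There were 2 higher and 5 lower without 0dpa replicate 2, and 2 higher and 4 lower without 2dpa replicate 3. SMED30035904 was higher by 0.73 (SE 0.16, limma adjusted p = 0.003094), with every 2dpa library above every 0dpa library. SMED30031235 was lower, at 3006, 2710 and 3231 scaled units at 2dpa against 5986, 4635 and 4881 at 0dpa, a log2 fold change of -0.79 (SE 0.18, limma adjusted p = 0.003798). SMED30026632 was higher by 0.63 (limma adjusted p = 0.021) but lost its call without 0dpa replicate 2, 2dpa replicate 2 or 2dpa replicate 3 (adjusted p up to 0.114).

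Whole bodies are separate libraries, so they are a further look at the same features. At homo, many dip features were higher with opa1 or drp1 RNAi. With opa1 RNAi 103 members were higher and 12 lower than in control whole bodies, where 19.2% and 15.6% of all 22889 features were called by edgeR, and the median log2 fold change was 0.32 against -0.02 for all. With drp1 RNAi 83 were higher and 13 lower, with 13.7% and 10.5% of all features called and medians of 0.24 and -0.01. These comparisons share the 3 control libraries, so the counts are given side by side and not as an overlap.

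**Figure D5:**
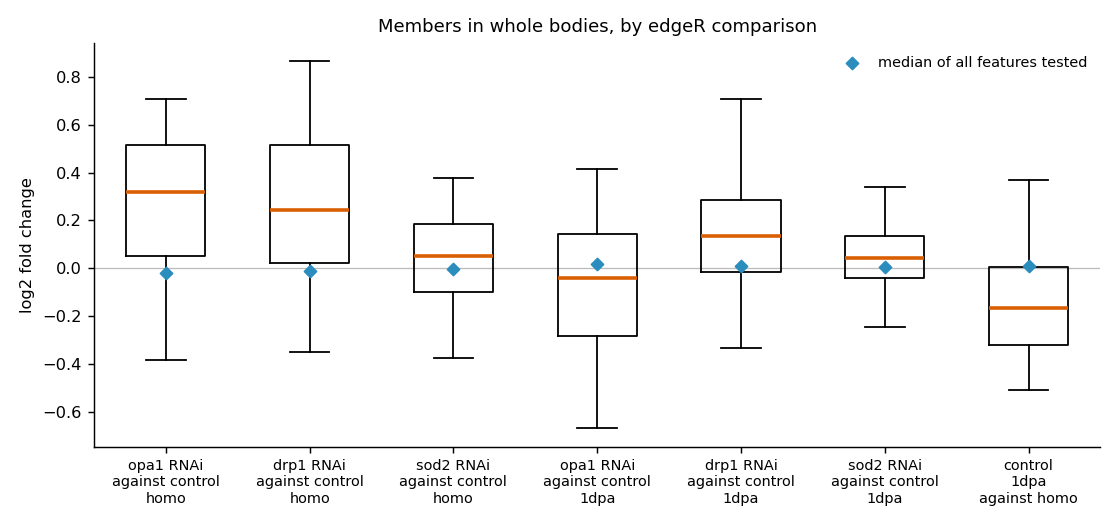
Log2 fold changes of the 200 dip features in 7 whole-body comparisons tested with edgeR. Boxes show the interquartile range and the median, whiskers the 5th and 95th percentiles, and diamonds the median of all 22889 features tested. The opa1 and drp1 RNAi boxes at homo lie above 0 with medians of 0.32 and 0.24, the opa1 RNAi box at 1dpa crosses 0, and the control 1dpa against homo median is -0.16.

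SMED30007637 rose furthest at homo with either RNAi. It had 217, 346 and 285 CPM with opa1 RNAi and 459, 362 and 419 CPM with drp1 RNAi, against 183, 143 and 95.7 CPM in control whole bodies. Its log2 fold changes were 1.18 (SE 0.17, edgeR adjusted p = 7.494e-06) and 1.69 (SE 0.18, edgeR adjusted p = 2.79e-08). SMED30015498 had 574, 417 and 525 CPM with drp1 RNAi, against 228, 200.2 and 130.4 CPM in controls, a log2 fold change of 1.58 (SE 0.16, edgeR adjusted p = 1.514e-08). SMED30022790 had 66.1, 65.1 and 56.4 CPM with opa1 RNAi, against 37.0, 37.3 and 32.3 CPM, a log2 fold change of 1.01 (SE 0.10, edgeR adjusted p = 2.247e-08). No RNAi library of these features overlapped a control library in the comparisons given. SMED30007637 and SMED30015498 kept a ratio of 0.619 to 0.992 in whole bodies, and whether they share reads was not tested.

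SMED30015539 and SMED30019056 were lower with opa1 RNAi and with drp1 RNAi at homo. SMED30015539 had 2.59, 1.56 and 3.03 CPM with opa1 RNAi and 3.50, 2.64 and 3.06 CPM with drp1 RNAi, against 3.91, 7.47 and 8.67 CPM in controls. Its log2 fold changes were -1.27 (SE 0.27, edgeR adjusted p = 0.0005319) and -0.94 (SE 0.26, edgeR adjusted p = 0.008496), the second lost without control replicate 3 (adjusted p = 0.07459). SMED30019056 changed by -1.06 (SE 0.22, edgeR adjusted p = 0.0005251) with opa1 RNAi and by -1.11 (SE 0.23, edgeR adjusted p = 0.0004996) with drp1 RNAi. With sod2 RNAi at homo 8 members were higher and 2 lower, where 2.15% and 1.61% of all features were called. The count was 5 without control replicate 3 or sod2 RNAi replicate 1, 6 without sod2 RNAi replicate 2 and 3 without sod2 RNAi replicate 3. With sod2 RNAi SMED30028269 (0.66) and SMED30014455 (0.54) were higher and SMED30003909 (-0.60) and SMED30019678 (-0.60) lower, and they lost their calls in 5, 2, 2 and 5 of 6 fits without 1 library, with adjusted p up to 0.2534, 0.07716, 0.088 and 0.1976 in edgeR. SMED30028269 kept its call without sod2 RNAi replicate 2 alone and SMED30019678 without control replicate 2 alone, SMED30014455 lost it without control or sod2 RNAi replicate 3, and SMED30003909 without control or sod2 RNAi replicate 1.

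At 1dpa the opa1 RNAi whole bodies no longer showed that rise. Of the members, 17 were higher and 33 lower than in control whole bodies, where 4.57% and 6.64% of all features were called, with a median of -0.04 against 0.02 for all. Without opa1 RNAi replicate 1 the counts were 9 higher and 23 lower. With drp1 RNAi 31 were higher and 7 lower, with 3.83% and 3.36% of all features called and medians of 0.14 and 0.01. With sod2 RNAi 3 were higher and 1 lower, with 0.214% and 0.179% of all features called. There were 0 called without control replicate 1 or 3, 1 without sod2 RNAi replicate 3, and 2 without control replicate 2 or sod2 RNAi replicate 1 or 2.

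SMED30029987 and SMED30034941 had the highest fold changes among called members at 1dpa with each RNAi, in comparisons that share their control libraries. SMED30029987 had 7.96, 7.38 and 7.11 CPM with opa1 RNAi, 10.01, 9.004 and 6.87 CPM with drp1 RNAi and 5.68, 8.19 and 7.19 CPM with sod2 RNAi, against 3.98, 3.64 and 4.07 CPM in controls. Its log2 fold changes were 0.84, 1.14 and 0.86 (SE 0.19 each, edgeR adjusted p = 0.003095, 0.000136 and 0.03367). SMED30034941 had log2 fold changes of 0.80, 0.87 and 0.46 (SE 0.10 each, edgeR adjusted p = 1.708e-06, 7.514e-07 and 0.03529). It had 33.8, 36.4 and 35.8 CPM with opa1 RNAi, 35.1, 31.8 and 37.2 CPM with drp1 RNAi and 26.4, 25.1 and 25.5 CPM with sod2 RNAi, against 19.5, 21.2 and 16.0 CPM in controls. SMED30019899 was lower with each RNAi, at 19.8, 12.3 and 16.9 CPM with opa1, 20.3, 15.9 and 18.2 CPM with drp1 and 23.8, 23.5 and 21.7 CPM with sod2 RNAi, against 37.2, 39.2 and 32.6 CPM in controls. Its log2 fold changes were -1.25, -1.01 and -0.64 (SE 0.15, 0.16 and 0.15, edgeR adjusted p = 1.092e-06, 3.986e-05 and 0.04831). The sod2 RNAi calls of SMED30029987, SMED30034941 and SMED30019899 were lost in 5, 5 and 6 of 6 fits without 1 library, with adjusted p up to 0.2313, 0.2437 and 0.2292, while the opa1 and drp1 RNAi calls were kept in each. The sod2 RNAi call of SMED30029987 was kept without sod2 RNAi replicate 1, and that of SMED30034941 without control replicate 2. SMED30016041 was lower with drp1 RNAi, at 13.4, 16.8 and 13.2 CPM against 23.6, 24.7 and 27.0 CPM, a log2 fold change of -0.81 (SE 0.13, edgeR adjusted p = 9.853e-05).

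The opa1 RNAi effect in whole bodies differed between both times for much of the set. Tested as 1dpa minus homo, a comparison added after the data were seen, it was lower for 89 members and higher for 11, where 15.7% and 12.8% of all features were called, with medians of -0.31 and 0.05. The homo libraries stand in both this difference and the rise at homo, so those counts are not independent of each other. Of the 103 members higher at homo, 12 (11.7%) were also higher at 1dpa, 18 (17.5%) were lower and 73 (70.9%) were not called. Of all 4395 features higher at homo, 8.46% were also higher, 18.8% were lower and 72.8% were not called at 1dpa. Members higher at homo were thus close to all such features in the shares lower and not called. SMED30018643 had 1586, 1844 and 1458 CPM with opa1 RNAi at homo, against 1209.5, 1105 and 1039.7 CPM in controls. At 1dpa it had 611, 677 and 750 CPM with opa1 RNAi, against 814, 832 and 845 CPM in controls. Its opa1 RNAi libraries lie above the controls at homo and below them at 1dpa, and the effects differed by -1.12 (SE 0.15, edgeR adjusted p = 2.67e-06). SMED30018643 lies outside the stated rule for naming features here too, and its fits without 1 library are not given.

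SMED30007036 had 5.34, 6.23 and 8.62 CPM with opa1 RNAi at homo, against 5.90, 5.58 and 5.29 CPM in controls, and 4.68, 3.51 and 3.17 CPM with opa1 RNAi at 1dpa, against 7.11, 7.97 and 6.55 CPM. Its groups overlap at homo and do not at 1dpa, and the effects differed by -1.48 (SE 0.28, edgeR adjusted p = 0.0001688). SMED30002290 differed by -2.26 (SE 0.50, edgeR adjusted p = 0.001118), with 1.26, 1.94 and 1.41 CPM with opa1 RNAi at 1dpa, against 4.74, 3.80 and 4.67 CPM in controls. SMED30015539 and SMED30019056, lower at homo, differed the other way, by 1.51 (SE 0.36, edgeR adjusted p = 0.002105) and 1.27 (SE 0.30, edgeR adjusted p = 0.001694). They were also named above for their falls at homo, and the difference holds those same homo libraries, so it is not a separate result.

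For drp1 RNAi the same difference was called lower for 18 members and higher for 2, where 2.89% and 1.03% of all features were called, with medians of -0.07 and 0.02. The homo libraries are shared with the effect at homo here as well. Of the 83 members higher at homo, 27 (32.5%) were also higher at 1dpa and 0 were lower. Of all 3147 features higher at homo, 17.2% were also higher at 1dpa and 1.11% were lower. The count of 20 rests on single libraries: it was 36 and 9 without control homo replicates 1 and 3, 6 without drp1 RNAi homo replicate 1, 11 and 12 without control 1dpa replicates 1 and 3, and 9 and 13 without drp1 RNAi 1dpa replicates 2 and 3. SMED30020231 had 19.4, 18.8 and 16.5 CPM with drp1 RNAi at homo, against 11.9, 9.02 and 7.03 CPM in controls, and 12.5, 13.1 and 7.04 CPM with drp1 RNAi at 1dpa, against 12, 11.3 and 13.4 CPM. Its difference was -1.29 (SE 0.27, edgeR adjusted p = 0.005254) and was called without any 1 library. SMED30007637 differed by -0.95, SMED30015763 by 0.46 and SMED30020684 by 0.32 (edgeR adjusted p = 0.02277, 0.02731 and 0.04862), and these calls were lost in 6, 6 and 10 of 12 fits without 1 library. SMED30007637 lost it without control homo replicate 3, drp1 RNAi homo replicate 1, control 1dpa replicate 1 or 3, or drp1 RNAi 1dpa replicate 2 or 3. SMED30015763 lost it without control homo replicate 2 or 3, drp1 RNAi homo replicate 1 or 3, control 1dpa replicate 3 or drp1 RNAi 1dpa replicate 1. SMED30020684 kept it without control homo replicate 1 or drp1 RNAi 1dpa replicate 2 alone.

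In control whole bodies at 1dpa against homo, 50 dip features were lower and 8 higher, where 8.89% and 9.83% of all features were called lower and higher, with medians of -0.16 and 0.01. SMED30017160, the deepest dip in control tails, fell by 0.80 on the log2 scale, at 16.1, 18.9 and 19.6 CPM at 1dpa against 28.8, 29.6 and 32.4 CPM at homo (SE 0.10, edgeR adjusted p = 6.233e-07). SMED30033083 had 6.65, 6.00 and 8.51 CPM at 1dpa, against 10.9, 11.4 and 10.3 CPM at homo, and changed by -0.69 (SE 0.18, edgeR adjusted p = 0.005767). SMED30015789 was higher, at 6.80, 4.93 and 6.18 CPM against 3.37, 3.69 and 2.08 CPM, a log2 fold change of 0.89 (SE 0.22, edgeR adjusted p = 0.004368). SMED30028269 was higher by 0.66 (SE 0.19, edgeR adjusted p = 0.01273), a call lost without control homo replicate 1 or control 1dpa replicate 2 (adjusted p up to 0.06088). No whole-body library at 6hpa was analysed here.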

How the data were processed

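Total RNA of tails and whole bodies was sequenced, per the labels. The whole-body values are estimated counts and TPM that the authors deposited, made with kallisto per the names of the deposited tables. No label or header names its version, its index or a genome build. The tail table holds scaled signal values deposited by the authors. Over 9113 features each value was a constant of its feature times a constant of its library times the deposited TPM (SD of the log2 residual 0.00179). Whole reads could not be recovered from it, so the planned count test on recovered reads was not run. The tail TPM table used here holds 27444 features and 149 of the 200 members.

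Members, lists and tests were chosen with earlier results of these data known. Tail values were tested with limma 3.58.1 on log2(value + 1), which understates changes of low features, over the 20681 features that reached 10 in 3 or more libraries, with all 36 libraries and 12 group means. Rounded whole-body estimated counts went into the edgeR 4.0.16 quasi-likelihood test with TMM factors, over 22889 features, 24 libraries and 8 group means, in R 4.3.3. Printed CPM are the unrounded estimated counts scaled to each library's summed count, without TMM factors. P-values were Benjamini-Hochberg adjusted over all features tested, and 0.05 was the threshold. Both tests were run on simulated data with known changes. Values were drawn independently for each feature, with no outlying library, so dependence on single libraries was not covered there. For each comparison, the features named are those called, with no overlap between the groups' libraries, and with up to 2 largest changes in each direction. For differences of changes no separation was asked. The 2 lowest at 6hpa and the 2 with the highest values in control tails at 0dpa were added as a description. The tests given for SMED30018643 lie outside this rule. The fold changes of tail values are on the log2(value + 1) scale and those of the membership rule on the log2(value + 10) scale. The tail table gives no depth in reads, and the worth of 1 read was estimated from its smallest values. No replicate pair held identical values, and replicates of a group correlated at 0.958 to 0.977 (tails) or 0.973 to 0.978 (whole bodies; Pearson r of log values across features). Alternatives covered scaling, the TPM table, the pseudocount, filters, DESeq2 1.42.0, the libraries in the fit, a replicate block and leaving out each library.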

Additional observations from a re-analysis of the deposited data

Results flagged for a closer look

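The 6hpa against 0dpa change differed between combined and opa1 RNAi tails for 11 dip features, each with the more negative change in combined RNAi tails (limma interaction, adjusted over all features tested). Without opa1 RNAi 0dpa replicate 2 the count was 1, and without that library and opa1 RNAi 6hpa replicate 1 it was 0. The part of these libraries in the difference was not tested beyond these fits.

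The 1dpa against 0dpa change differed between the same RNAi tails for 5 dip features, each lower in combined RNAi tails, and for 1 dip feature without opa1 RNAi 0dpa replicate 2. SMED30011695 was called without any 1 library.

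In whole bodies the opa1 RNAi effect differed between 1dpa and homo for 100 dip features (89 lower and 11 higher at 1dpa), and for 86 to 103 without any 1 library. The drp1 RNAi effect differed between these times for 20 (18 lower and 2 higher), and for 6 to 36 without any 1 library. Both differences share the homo libraries with the effects at homo, so they are not independent of those.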

How the results depend on the processing

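The dip and the return kept their direction and stayed within 1.5 times the count reported under every alternative run. Without any 1 library the dip was called for 190 to 197 members in combined and 164 to 185 in opa1 RNAi tails, and the return for 189 to 194 and 188 to 195. The whole-body counts at homo with opa1 and drp1 RNAi stayed at 92 to 116 and 70 to 94. Smaller counts moved. The causes were not tested.

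At 2dpa against 0dpa in opa1 RNAi tails, 19 members were called in a fit of only the libraries compared, and 9 (2 higher, 7 lower, the other direction) without the 2 opa1 RNAi libraries that stood apart. At 1dpa against 0dpa in combined RNAi tails the direction turned with the TPM table (17), a pseudocount of 10 (15), scaling without the most abundant feature (12) and only the libraries compared (34), and 5 were called with no filter. At 2dpa against 0dpa in combined RNAi tails the direction turned in the TPM table (33), with 13 called with no filter and 48 with only the libraries compared.

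For combined against opa1 RNAi tails, 4 were called at 0dpa with only the libraries compared. At 6hpa the counts were 57 in the TPM table, 6 with no filter, 0 with only the libraries compared (limma) and, with the direction turned, 17 without the 2 libraries. At 1dpa 1 was called in the TPM table, 1 with no filter and 1 without the most abundant feature. At 2dpa 16 were called with only the libraries compared. For the difference of the 6hpa change the counts were 1 with no filter, 18 without the most abundant feature, 2 with only the libraries compared and 0 without the 2 libraries. For that of the 1dpa change they were 1 in the TPM table, with no filter, with only the libraries compared and without the 2 libraries. With sod2 RNAi in whole bodies at 1dpa, 11 were called with no filter and 11 with only the libraries compared. For the difference of the drp1 RNAi effect 12 were called with only the libraries compared.

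Without any 1 library, the lowest and highest counts were 39 and 63 for opa1 RNAi tails at 1dpa against 0dpa, 6 and 11 at 2dpa, and 2 and 8 for combined RNAi tails at 1dpa. The direction turned in opa1 RNAi tails at 2dpa without 0dpa replicate 2 (7) or 2dpa replicate 3 (6). It turned in combined RNAi tails at 1dpa without 0dpa replicate 2 (5) or 1dpa replicate 3 (8). For combined against opa1 RNAi tails they were 0 and 8 at 0dpa, 5 and 39 at 6hpa, 0 and 2 by 1dpa, then 0 and 1 by 2dpa. At 6hpa the direction turned without opa1 RNAi replicate 1 (15) or combined RNAi replicate 2 (5). For the differences of changes they were 1 and 39 (6hpa against 0dpa) or 1 and 13 (1dpa against 0dpa). In whole bodies they were 3 and 9 with sod2 RNAi at homo, 32 and 49 with opa1 RNAi at 1dpa, 0 and 2 with sod2 RNAi at 1dpa, and 6 and 36 for the difference of the drp1 RNAi effect.

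Whether replicate numbers pair the libraries is not given in the labels, and correlations of same-numbered libraries cannot exclude it. In 0 of 19 comparisons was every such correlation over 0.1 (range -0.114 to 0.1483), so the main fits were left unpaired. With a replicate block 1 member was called for combined against opa1 RNAi tails at 0dpa, 195 and 184 in the dip, 116 and 94 with opa1 and drp1 RNAi at homo, and every other count stayed within 1.5 times that reported. Of 69 pairs of a named feature and a comparison, 37 kept the call under each alternative, 32 lost it under at least 1 and 0 changed direction. The edgeR test on recovered reads was not run. The fit without 1 library assumes that the libraries left vary like the other groups.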
